A study of Mus musculus with 2 samples.

Results

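The 8 iron-sulfur cluster assembly genes examined here were the mouse genes Nfs1, Lyrm4, Iscu, Hscb, Glrx5, Isca1, Isca2 and Bola3. They were taken by name from a pathway list, and all 8 were found among the 43346 gene entries of the deposited tables. RNA came from G1E, an immortalized mouse line labelled as a Gata1- erythroid progenitor, from a male at postnatal age 0 days, with no treatment named. Polyadenylated RNA was read as paired ends in 2 libraries, replicate 1 and replicate 2, which formed 1 group. There was therefore no control condition. Although both are labelled as biological replicates, they cite a single biosample, so the spread between them may be technical.

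Iron-sulfur clusters are small cofactors of iron and sulfide that carry electrons or hold enzymes in shape. In mitochondria, the cysteine desulfurase NFS1, held by LYRM4 and an acyl carrier protein, supplies sulfide, while the cluster forms on the scaffold protein ISCU. The co-chaperone HSCB and its chaperone HSPA9 release the cluster, the glutaredoxin GLRX5 passes it on, and ISCA1, ISCA2 and BOLA3 act late, on the way to particular target enzymes. The last enzyme of haem synthesis in animals, FECH, carries such a cluster. Loss of GLRX5 is known to cause anaemia in zebrafish and in humans, and HSCB variants have been linked to anaemia in humans.

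Replicate 1 held 61982634 expected counts, which are read-pair counts divided among transcripts by a model, and replicate 2 held 80658648. Levels are given in TPM, a transcript abundance corrected for length and scaled to the same total in each library, so that genes can be compared. In bulk RNA, more expressing cells and more RNA per cell cannot be told apart. Of 10 erythroid progenitor markers, all 10 reached 1 TPM in both libraries and so counted as detected. Their mean levels lay between 47.3 and 4164 TPM, the highest being that of the globin gene Hba-a1. Globin RNA was thus counted here with the progenitor markers and not with the late ones. The 10 markers included Gata1 transcripts at 47.3 ± 0.997 TPM (SD, n = 2), as counted over the whole gene. Of 4 late erythroid markers, 1 was detected, and of 8 markers of other cell types, 0 were, 5 of them being listed at 0 TPM in both libraries.

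All 8 assembly genes were detected in both libraries, and 7 of them reached 10 TPM in both. The same threshold of 1 TPM in both libraries was met by 40.0% of 21474 protein-coding genes. The median level of the 8 genes was 44.8 TPM in replicate 1 and 53.6 TPM in replicate 2, beside 16.0 and 17.9 TPM over all 9150 detected genes. The medians of the 8 genes include the short transcript Bola3-205, described below, and would be lower without it. A pair of genes stood far from the other members, Glrx5 above them and Lyrm4 below.

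**Figure D1:**
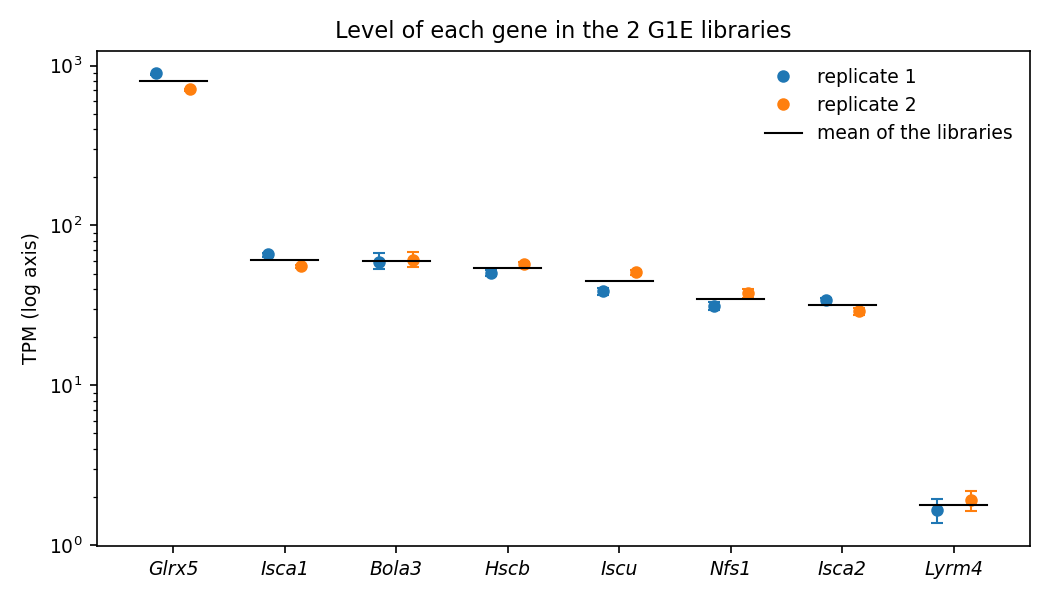
TPM on a log axis (vertical) of each assembly gene (horizontal) in replicate 1 (left point) and replicate 2 (right point). Horizontal lines are means, and bars are the authors' interval bounds around their posterior mean, whose level is not given in the sources used here. Glrx5 lies near 806 TPM, 6 genes lie between 31.6 and 61.1 TPM on average, and Lyrm4 lies at 1.78 TPM.

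Sulfide supply begins with Nfs1, the cysteine desulfurase gene (ENSMUSG00000027618.13; mm10 chr2:156123639-156144186, minus strand). Nfs1 was at 31.43 TPM in replicate 1 and 37.96 TPM in replicate 2, from 3176 and 4042 expected counts. Its mean was 34.7 ± 4.62 TPM (SD, n = 2), at percentile 66.0 of the detected genes.

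Lyrm4 encodes the small subunit that stabilises NFS1 (ENSMUSG00000046573.6; mm10 chr13:35978395-36117526, minus strand). Its level was 1.66 TPM in replicate 1 and 1.90 TPM in replicate 2, from 127 and 184 expected counts, and the mean of 1.78 ± 0.170 TPM (SD, n = 2) lay at percentile 5.33. Set against its binding partner, Lyrm4 RNA was 18.9-fold lower than Nfs1 RNA in replicate 1 and 19.98-fold lower in replicate 2. The log2 ratio of Lyrm4 to Nfs1 TPM was -4.28 ± 0.05 (SD, n = 2), so the gap was far wider than the spread between libraries. The model of Lyrm4-201 in the deposited tables is 1515 bases long, against 2086 bases in the later annotation GENCODE M21. The effect of that difference on the level was not tested.

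Ndufab1, whose product is the mitochondrial acyl carrier protein of the same complex, stood at the other end of the range. It was at 1727 TPM in replicate 1 and 1273 TPM in replicate 2, the only one of 58 other pathway genes above Glrx5 in mean TPM. Its expected counts, 36176 in replicate 1 and 31728 in replicate 2, were below the 39382 and 39561 of Glrx5. That rank therefore depends on the transcript lengths used. The RNAs of these subunits of the desulfurase complex thus differed widely in level within each library, with Ndufab1 highest, Nfs1 between and Lyrm4 lowest.

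Iscu encodes the scaffold on which the cluster forms (ENSMUSG00000025825.8; mm10 chr5:113772748-113778288, plus strand). Its level was 38.95 TPM in replicate 1 and 51.26 TPM in replicate 2, from 2024 and 3245 expected counts, with a mean of 45.1 ± 8.70 TPM (SD, n = 2) at percentile 71.1. Iscu RNA exceeded Nfs1 RNA by 1.24-fold in replicate 1 and 1.35-fold in replicate 2, and their log2 ratio was 0.37 ± 0.09 (SD, n = 2).

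Of the 7 Iscu transcripts in the tables, 4 took at least 5% of the gene's TPM in a library. The annotated coding transcripts Iscu-201 and Iscu-203 were the main ones, and they part in exon 4. That exon has 79 bases in Iscu-201 and 308 bases in Iscu-203, whose exon runs on for 229 further bases, and its coding sequence ends in those added bases. As annotated in GENCODE M21, Iscu-201 has 504 coding bases and Iscu-203 has 627. Their annotated ends also differ: exon 1 has 197 bases in Iscu-201 and 142 in Iscu-203, and exon 5 has 456 and 441. The 30 bases on each side of the point where they part in exon 4 are shown, 5′ to 3′, from the GENCODE M21 transcripts on mm10. Reads across that point were not counted here. Lower case marks the shared bases, the last of which is base 113776849 of chromosome 5 on the plus strand, and capitals mark what follows in each transcript.
Iscu-201: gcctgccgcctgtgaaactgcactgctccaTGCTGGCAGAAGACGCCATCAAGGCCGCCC
Iscu-203: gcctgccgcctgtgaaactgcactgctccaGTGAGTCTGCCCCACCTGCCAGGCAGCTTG
The capitals of Iscu-203 start with GT, the letters with which most introns begin, and those bases are intron in Iscu-201.

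Iscu-203 differed little between the libraries, at 25.76 TPM in replicate 1 and 23.12 TPM in replicate 2. Iscu-201 was at 7.13 TPM in replicate 1 and 23.00 TPM in replicate 2, from 324 and 1316 expected counts. The authors' bounds for Iscu-201 ran from 5.68 to 8.27 TPM in replicate 1 and from 21.2 to 24.3 TPM in replicate 2, without overlap, whereas those of Iscu-203 overlapped. Iscu-203 thus took 66.1% of Iscu TPM in replicate 1 and 45.1% in replicate 2, and Iscu-201 took 18.3% and 44.9%. Iscu-202, a coding transcript that ends in the extended exon, took 7.43% and 5.50%, and Iscu-204, annotated as a target of nonsense-mediated decay, took 6.18% and 4.08%. Together the 3 transcripts that hold extension bases, Iscu-202, Iscu-203 and Iscu-204, were at 31.06 TPM in replicate 1 and 28.03 TPM in replicate 2. The library difference of the whole gene was therefore carried by Iscu-201.

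**Figure D2:**
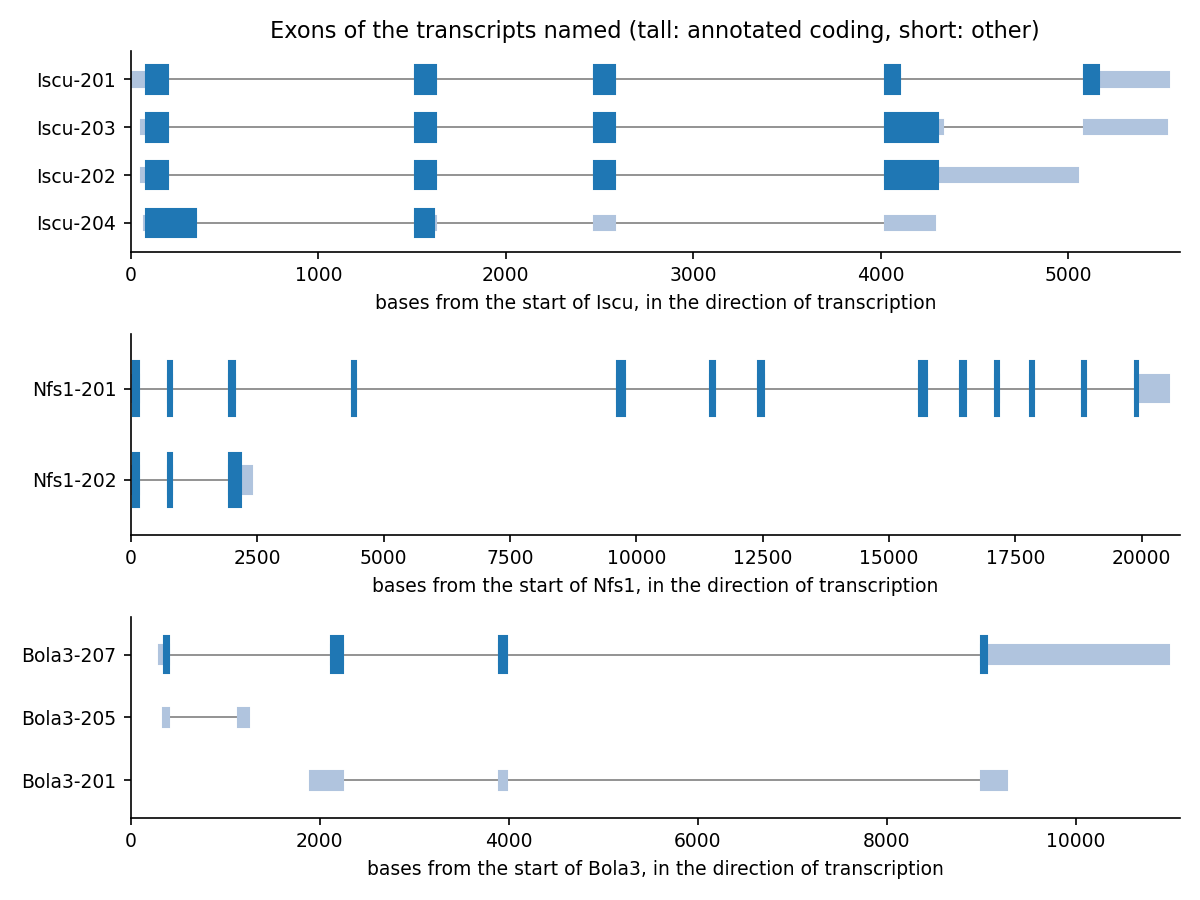
Exon maps of the named transcripts of Iscu, Nfs1 and Bola3 from GENCODE M21, with the distance from the gene's start in bases on the horizontal axis. Tall blocks are annotated coding bases and short blocks other exon bases, and Iscu-203, Iscu-202, Iscu-204 and Nfs1-202 show the extended exons.

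Nfs1 transcripts also differed between the libraries, but there the form with the extended exon was the one that differed. Nfs1-201 has 13 exons and 1377 coding bases, while Nfs1-202 ends in an exon 3 of 456 bases in place of 117 and has 444 coding bases. Both are shown around the end of their shared exon 3 sequence, in the same way, with the last shared base at 156142126 of chromosome 2 on the minus strand.
Nfs1-201: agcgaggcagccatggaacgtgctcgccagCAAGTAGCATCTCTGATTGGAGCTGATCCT
Nfs1-202: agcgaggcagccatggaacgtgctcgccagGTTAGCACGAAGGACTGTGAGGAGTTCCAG
Here too the added bases start with GT and are intron in the long transcript.

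Nfs1-201 was at 28.14 TPM in replicate 1 and 25.97 TPM in replicate 2. Nfs1-202 was at 1.87 TPM in replicate 1 and 10.92 TPM in replicate 2, from 58.95 and 434 expected counts. Its bounds ran from 0.431 to 4.73 TPM in replicate 1 and from 7.94 to 13.5 TPM in replicate 2 and did not overlap. The share of Nfs1-201 was 89.5% in replicate 1 and 68.4% in replicate 2, and that of Nfs1-202 was 5.94% and 28.8%. The gene's total TPM was lower in replicate 1 although its transcript with the full set of exons was higher there.

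Hscb encodes the co-chaperone that brings ISCU to HSPA9 (ENSMUSG00000043510.8; mm10 chr5:110829070-110839777, minus strand). It was at 50.70 TPM in replicate 1 and 57.24 TPM in replicate 2, with a mean of 54.0 ± 4.62 TPM (SD, n = 2) at percentile 74.7. Hscb RNA was 1.30-fold above Iscu RNA in replicate 1 and 1.12-fold above it in replicate 2, and the TPM ranges of these 2 genes overlapped. Hspa9, the chaperone itself, was at a similar level, 57.4 and 64.6 TPM. At least 99.7% of Hscb TPM was in Hscb-201 in each library.

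Glrx5, the transfer glutaredoxin gene (ENSMUSG00000021102.3; mm10 chr12:105032688-105042906, plus strand), was by far the highest member. It was at 897.01 TPM in replicate 1 and 715.08 TPM in replicate 2, from 39382 and 39561 expected counts. The mean of 806 ± 129 TPM (SD, n = 2) lay at percentile 98.2 of the detected genes. Both deposited values lay just above the authors' bounds, 876 to 893 TPM in replicate 1 and 699 to 713 TPM in replicate 2, which surround a posterior mean. Glrx5 held 76.0% of the summed TPM of the 8 genes in replicate 1 and 70.8% in replicate 2. It exceeded Isca1, the next gene in order, 13.5-fold in replicate 1 and 12.8-fold in replicate 2. Its single transcript is 930 bases long in the deposited tables and 2925 bases long in GENCODE M21, and the effect of the longer model on the level was not tested.

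Isca1 and Isca2 encode partner proteins of the late step that builds the larger clusters of enzymes such as aconitase. Isca1 (ENSMUSG00000044792.6; mm10 chr13:59755409-59769810, minus strand) was at 66.36 TPM in replicate 1 and 55.85 TPM in replicate 2, with a mean of 61.1 ± 7.43 TPM (SD, n = 2) at percentile 77.2. Isca2 (ENSMUSG00000021241.6; mm10 chr12:84773251-84775088, plus strand) was at 34.03 and 29.15 TPM, with a mean of 31.6 ± 3.45 TPM (SD, n = 2) at percentile 63.8. Both genes were higher in replicate 1, and their ratio hardly moved. Isca1 was 1.95-fold above Isca2 in replicate 1 and 1.92-fold above it in replicate 2, with a log2 ratio of 0.95 ± 0.02 (SD, n = 2).

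Bola3 encodes a late factor that works with GLRX5 and NFU1 (ENSMUSG00000045160.10; mm10 chr6:83349147-83360136, plus strand). Its deposited level was 59.45 TPM in replicate 1 and 61.12 TPM in replicate 2, a mean of 60.3 ± 1.18 TPM (SD, n = 2) at percentile 77.0. Bola3 RNA was 15.1-fold below Glrx5 RNA in replicate 1 and 11.7-fold below it in replicate 2, with a log2 ratio of -3.73 ± 0.26 (SD, n = 2). That ratio was -4.71 without the short transcript Bola3-205, and -1.05 with counts divided by the annotated length of that transcript.

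The Bola3 level rested in large part on a very short transcript. Bola3-205 is an annotated non-coding transcript of 189 bases, whose effective length, the number of positions at which a fragment can start, was 45.6 bases in replicate 1 and 41.8 bases in replicate 2. It held 69 and 95 expected counts, which were 1.84% and 2.39% of the gene's counts, but 45.6% and 52.6% of its TPM. The coding transcript Bola3-207, of 2312 bases, held 3637 and 3732 counts, or 96.8% and 93.7%, but 50.5% and 39.9% of the TPM. Without Bola3-205, Bola3 was at 32.36 TPM in replicate 1 and 29.01 TPM in replicate 2, a mean of 30.7 ± 2.37 TPM (SD, n = 2) that falls below Isca2. The sequences at the end of the part of exon 1 that both share, up to base 83349554 of chromosome 6 on the plus strand, show where they part.
Bola3-207: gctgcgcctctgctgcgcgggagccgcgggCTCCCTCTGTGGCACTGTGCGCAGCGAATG
Bola3-205: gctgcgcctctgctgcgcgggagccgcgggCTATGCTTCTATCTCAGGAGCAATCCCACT
Bola3-201, a retained-intron transcript, took 1.28% of the TPM in replicate 1 and 5.43% in replicate 2.

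**Figure D3:**
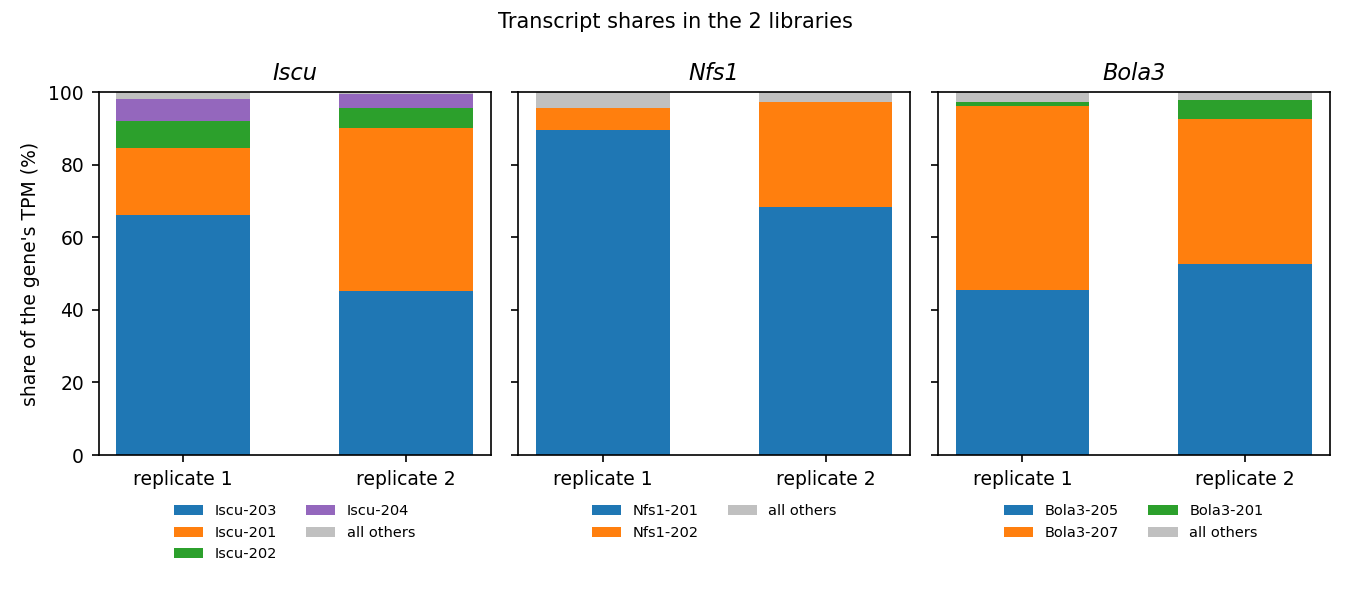
Share of each gene's TPM (vertical, percent) given to its transcripts in replicate 1 (left bar) and replicate 2 (right bar) for Iscu, Nfs1 and Bola3. Iscu-201 and Nfs1-202 took larger shares in replicate 2, and Bola3-205 took 45.6% and 52.6% of Bola3.

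In order of mean TPM the genes ran Glrx5, Isca1, Bola3, Hscb, Iscu, Nfs1, Isca2, Lyrm4. The values of the 2 libraries overlapped between neighbours for Isca1 and Bola3, for Hscb and Iscu, and for Nfs1 and Isca2. In the first and last of these pairs the order differed between the libraries. Separate values were seen for Glrx5 above Isca1, for Bola3 above Hscb, for Iscu above Nfs1 and for Isca2 above Lyrm4. The place of Bola3 held only with Bola3-205 included.

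Glrx5, Isca2 and Lyrm4 each had 1 transcript in the tables, and Isca1-201 took 99.6% and 99.3% of Isca1 TPM. The leading transcript of a gene was taken as the one with the highest mean TPM over the 2 libraries. Of the members, 5 had several transcripts and at least 10 TPM in both libraries. In 2 of these, Iscu and Nfs1, the leading transcript's share differed by 10 percentage points or more. The same was true of 27.1% of 4111 such genes, and 9.73% of them differed by 20 points or more, as Iscu and Nfs1 also did. With 5 genes, no test was made of these counts.

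At the level of whole genes, no member differed 2-fold between the libraries. A gene was called different at an adjusted p under 0.05 and at least a 2-fold change in counts scaled to library size. By the two-sided exact conditional binomial test with Benjamini-Hochberg adjustment, 0 of the 8 genes were called, beside 5.77% of 11636 genes tested. The largest member difference was that of Glrx5, with a log2 ratio of replicate 1 over replicate 2 of 0.49. By edgeR's negative binomial exact test, 0 of 8 were called and 0 had an unadjusted p under 0.05, beside 0.980% of all genes called. Its spread was estimated from these same libraries, so that count says little about small differences.

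Counting error alone was exceeded more often. At an adjusted p under 0.05 with no fold requirement, 6 of the 8 genes passed the exact conditional test, as did 64.8% of all genes, and the same 6 had an unadjusted p under 0.05. Glrx5, Isca1, Bola3, Isca2 and Nfs1 were higher in replicate 1, and Iscu was lower there; over all genes, 32.4% passed as higher in replicate 1 and 32.4% as higher in replicate 2. On scaled counts the log2 ratio was 0.41 for Isca1, 0.42 for Bola3, 0.39 for Isca2, 0.15 for Nfs1 and -0.18 for Iscu. Hscb, at -0.01, and Lyrm4, at -0.04, did not pass, with adjusted p = 0.92 and 0.90 by the exact test. The median absolute log2 ratio was 0.29 over the members and 0.27 over all genes tested.

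The direction for Nfs1 and Bola3 depended on the scale. The log2 ratio of deposited TPM was -0.27 for Nfs1 and -0.04 for Bola3, both opposite in sign to the count ratio. Over all detected genes the median log2 ratio of TPM was -0.12, and relative to that median Nfs1 was still lower in replicate 1, at -0.16, while Bola3 was at 0.08. The gene's effective length, a TPM-weighted mean over its transcripts, was 1809 bases in replicate 1 and 1506 bases in replicate 2 for Nfs1, and 1132 and 921 bases for Bola3. For the single transcript with most counts, the log2 ratio of TPM was 0.12 for Nfs1-201, 0.30 for Bola3-207 and 0.16 for Iscu-203, all higher in replicate 1.

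**Figure D4:**
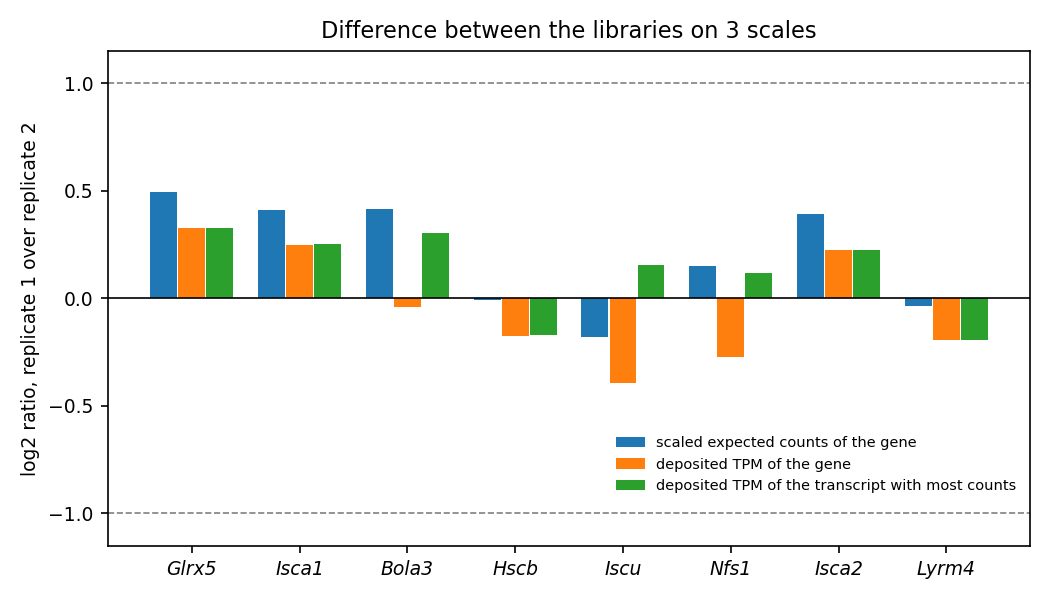
Log2 ratio of replicate 1 over replicate 2 (vertical) for each gene, from scaled expected counts (left bar), deposited gene TPM (middle bar) and TPM of the transcript with most counts (right bar). Dashed lines mark 2-fold differences, which no bar reaches, and the bars of Bola3, Iscu and Nfs1 change sign between scales.

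Parts of some members are shared with other genes, and whether counting used strand is not given in the sources used here. Nfs1 exons overlap Romo1, on the opposite strand, over 148 bases, and Romo1 was at 380 TPM in replicate 1 and 307 TPM in replicate 2. They also share 256 bases with Gm28036 on the same strand, at 9.35 and 14.37 TPM. Lyrm4 shares 115 exon bases with Fars2 on the opposite strand, at 10.15 and 9.56 TPM, above Lyrm4 itself. Gm28036 held 139 and 268 expected counts and is identical to Nfs1 over 258 bases. The near-identical copies of Iscu and Isca1 held few counts: the Iscu copy Gm16437, 98.3% identical over 421 bases, had 10.31 and 12.37 counts, and the Isca1 copy AK157302, 98.96% identical over 1914 bases, had 2.03 and 8.24. The division of reads between these genes and the members is uncertain, and its part in the levels was not tested.

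The other genes of the pathway, listed from textbook knowledge, were mostly present as well. Of 58, 52 were detected, beside 40.0% of 21474 protein-coding genes. Of the 56 tested, 1 was called different between the libraries, beside 5.77% of all 11636 genes tested. That gene, Cisd3, a mitochondrial iron-sulfur protein, was at 0.68 TPM in replicate 1 and 2.67 TPM in replicate 2 (log2 ratio of counts -1.89, adjusted p = 3.4e-08 by the exact conditional test). The call rests on 18 and 94 expected counts, and the authors' posterior mean TPM for Cisd3 was 10.43 in replicate 1 and 13.63 in replicate 2. All 14 mitochondrial partners were detected, with a median of 53.2 TPM in replicate 1 and 48.1 TPM in replicate 2. After Ndufab1 the highest was Bola1, at 129 ± 18.1 TPM (SD, n = 2). Nfu1, a late carrier that works beside BOLA3, was at 104 ± 5.01 TPM. The lowest were Grpel1, at 14.9 TPM, Iba57, which acts with ISCA1 and ISCA2, at 10.6 TPM, and Grpel2, at 1.31 TPM.

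All 13 genes of export and cytosolic assembly were detected. Ciapin1, an electron carrier of the cytosolic machinery, was highest at 555 ± 139 TPM, followed by Bola2 at 245 ± 83.6 TPM and Gfer at 99.2 ± 9.65 TPM (SD, n = 2 each). By expected counts, Ciapin1 was below Gfer in replicate 1, at 7206 against 9655, and above it in replicate 2, at 12662 against 10625. The part of transcript length in these TPM ranks was not tested. The lowest means were those of the cytosolic targeting factors Ciao3, Mms19 and Ciao1, at 17.0, 16.7 and 12.1 TPM, although Ciao2a, at 15.65 TPM, was below Ciao3 and Mms19 in replicate 1.

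Of the genes for proteins that receive clusters, 11 of 12 mitochondrial and 14 of 19 cytosolic or nuclear ones were detected. Fech, the gene of the last enzyme of haem synthesis, had the highest mean of the mitochondrial list at 263 ± 35.4 TPM (SD, n = 2). The complex I subunits Ndufv1 and Ndufs7 were at 254 ± 20.97 and 239 ± 28.9 TPM (SD, n = 2 each). Fech was first in replicate 1 and below both in replicate 2. By expected counts Fech was above both in each library, at 44363 in replicate 1 and 46348 in replicate 2. Ndufv1 had 7780 and 13198, and Ndufs7 had 7429 and 11176. The part of transcript length in this TPM order was not tested. Etfdh, Lias and Cisd3 had the lowest mean TPM of that list, at 19.5, 8.73 and 1.68 TPM. By posterior mean TPM, Cisd3 would be detected too, making 12 of 12, and in both libraries it would lie above Lias, at 6.13 and 11.34. Pold1, the catalytic subunit of a DNA polymerase, led the other list at 327 TPM, before the helicase gene Ercc2 at 38.2 TPM and Aco1, whose product binds RNA of iron genes when it lacks its cluster, at 31.2 TPM. In that list Cdkal1 was at 0.815 TPM, and Dpyd and Xdh were listed at 0 in both libraries. Among all 58 genes, 7 were below Lyrm4 in mean deposited TPM, Cisd3 among them.

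**Figure D5:**
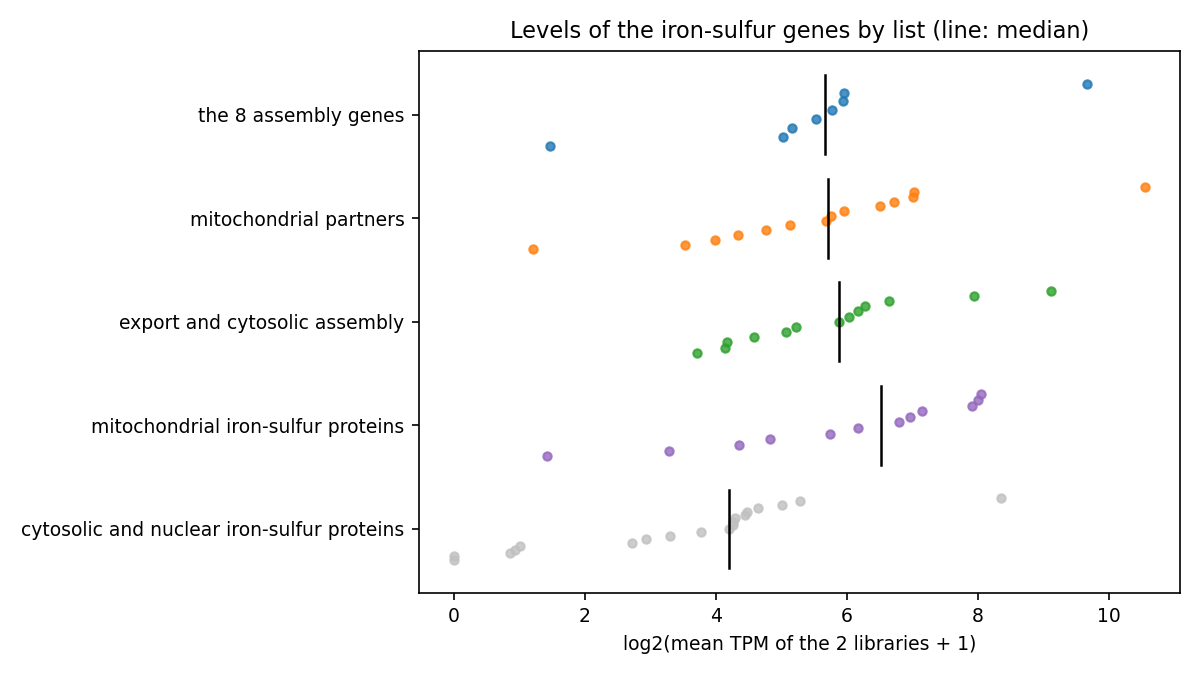
Mean TPM of the 2 libraries, as log2(TPM + 1) (horizontal), of every gene in each list (rows), with a vertical line at the list's median. The 8 assembly genes have Glrx5 as the far right point and Lyrm4 as the far left one, and Ndufab1 is the far right point of the partners.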

How the data were processed

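The authors deposited a gene table and a transcript table for each library, made on mm10 with gene annotation M4, per the deposited descriptions. The sources used here do not give the aligner or counter. Per the file headers, the tables give expected counts, TPM, FPKM (not used here) and the percent of a gene's TPM per transcript, all computed by the authors, with bounds around a posterior mean TPM (a deposited signal that is never negative). The authors' effective lengths, in bases, came with the deposited expected counts. Symbols, positions and sequences came from GENCODE M21 on mm10, matched by Ensembl identifier for 42462 of 43346 gene entries. Of the 29 member transcripts, 26 had the same length there.

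Levels are mean and SD of TPM over the libraries. Expected counts were rounded and scaled by TMM (edgeR 4.0.16; factors 0.960 and 1.04), and every gene that reached 10 counts in either library was tested by a two-sided exact conditional binomial test (SciPy 1.17.1), which covers counting error only. That test was checked on data simulated with counting error only, so the check does not cover the wider spread between these libraries. Because there was 1 group, no quasi-likelihood test was possible. Alternatives were edgeR's negative binomial exact test, DESeq2 1.42.0 size factors, no count minimum, no fold requirement, posterior mean TPM, counts per annotated length, TPM over protein-coding genes, a detection threshold of 5 TPM and each library alone. Near-identical copies were sought with BLAST 2.17.0, at 85% identity over 200 bases or more.

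The members and lists were chosen with earlier results of these data known. Named genes are the members, their transcripts at 5% or more of the gene's TPM in either library, and the direct partners and the 3 highest and 3 lowest genes of each pathway list; 2 genes of these lists enter the counts but are not reported here by name. Entries that name no gene, 97 control and 26248 numbered ones, were left out; they held 0 counts in replicate 1 and 1 in replicate 2.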

Additional observations from a re-analysis of the deposited data

How the results depend on the processing

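Over 34 results and 114 recomputed values, 101 kept their direction and their size or side of the threshold. All 23 values without replicate 1 and all 23 without replicate 2 were among these. Each of them sets a result from both libraries against 1 of those same libraries, so they say little about stability. With counts per annotated length of the leading transcript, the log2 ratio was -4.11 for Lyrm4 to Nfs1, 1.11 for Isca1 to Isca2 and -1.05 for Bola3 to Glrx5, the last because the leading Bola3 transcript has 189 bases. Without Bola3-205, an alternative chosen after seeing the data, as was the threshold of 20 percentage points for transcript shares, the ratio of Bola3 to Glrx5 was -4.71 and the Bola3 level 30.7 TPM. With no fold requirement, 6 members and 7541 genes differed between the libraries, in place of 0 and 671. By edgeR's negative binomial exact test, at a coefficient of variation of 0.224, 114 genes differed. The log2 ratio of replicate 1 over replicate 2 changed sign for Bola3 (-0.0400) and Nfs1 (-0.27) with deposited TPM and for Hscb (0.00539) with DESeq2 size factors. The share of Hscb in its leading transcript was 99.5% with posterior mean TPM.

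With each library alone, the log2 ratio ran from -4.32 to -4.24 for Lyrm4 to Nfs1, 0.31 to 0.43 for Iscu to Nfs1, 0.94 to 0.96 for Isca1 to Isca2, -3.92 to -3.55 for Bola3 to Glrx5 and 0.16 to 0.38 for Hscb to Iscu. No paired analysis was possible because the libraries formed a single group. With 2 libraries no exact permutation test can reach p under 0.05, and 127 and 184 counts limit the precision of Lyrm4. The M4 gene models set all lengths and therefore all TPM.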

Other observations

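Transcript shares also differed between the libraries among other genes of the pathway, but about as often as over all genes. The differences are therefore not particular to the pathway. The genes named here were picked for large differences after their values were seen. Of 32 pathway genes with several transcripts and at least 10 TPM in both libraries, the leading transcript's share differed by 10 percentage points or more in 8, beside 27.1% of all 4111 such genes. Bola2 works with GLRX3 in the cytosol. The transcript that led Bola2 by mean TPM over both libraries took 16.8% of its TPM in replicate 1 and 52.7% in replicate 2. For Nfu1, the late carrier beside BOLA3, the share was 47.9% in replicate 1 and 74.2% in replicate 2. The share was lower in replicate 2 for the DNA repair gene Mutyh, at 60.9% and 35.8%, and for the electron carrier gene Etfdh, at 78.3% and 57.8%. These differences were not tested, and no condition differed between the libraries.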
